A study of Rattus norvegicus with 16 samples.

Results

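Among 848 regions where immunoprecipitated SRF (serum response factor) was mapped in rat oligodendrocyte lineage cells, the sites named after 10 genes were examined: Gsk3a, Fbxl19, Banp, Prcc, Ncln, Rnf44, Mmachc, Maf1, Fam168a and Ccdc90b. They were chosen on measured values, namely a peak call in all 7 SRF libraries and many reads, so their levels are a description, and the comparison of OL with OPC, printed from a fit over all regions, supports nothing about them. Together 11 regions carry these names, because Gsk3a has a second, weaker one, and the 10 main regions were called in 7 of 7 SRF libraries and in neither IgG control. For comparison, 31 of the 848 regions were called in all 7 SRF libraries, and 30 of these (3.54% of the 848) were called in no IgG library. Wild-type primary rat oligodendrocyte precursor cells (OPC) were obtained by immunopanning, a capture of cells on antibody-coated dishes, and proliferated for 6 days. Plates of each preparation were divided between fixation as OPC and fixation as oligodendrocytes (OL) on day 3 after the change to differentiation medium. SRF libraries came from OPC replicates 1 to 4 and OL replicates 1, 2 and 4, with 1 IgG library per stage, and each SRF library had its own input. The makeup of the cultures was not measured here, and no transgene or treatment other than the change of medium is named in the labels.

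SRF is a transcription factor that binds DNA as a dimer at the CArG box, an A/T-rich core between C and G pairs. It acts with cofactors of the myocardin-related and ternary complex factor families, and its classical targets are immediate early genes and genes of the actin cytoskeleton. ZNF143 and THAP11 are other DNA-binding proteins, known in mammals for binding a shared element in many promoters of broadly expressed genes. None of the 10 genes here is a classical actin or immediate early gene.

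The genes have varied roles. Gsk3a encodes a glycogen synthase kinase, Fbxl19 an F-box protein that binds unmethylated CpG islands, and Banp a protein that in human and mouse cells binds a CG-rich motif at CpG island promoters. Prcc is named for its fusion to TFE3 in human papillary renal cell carcinoma, and Rnf44 encodes a RING finger protein. Ncln encodes nicalin, an endoplasmic reticulum membrane protein, Mmachc an enzyme that processes cobalamin (vitamin B12), Maf1 a repressor of RNA polymerase III, and Ccdc90b a mitochondrial coiled-coil protein. Fam168a is given by its name only.

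The promoter sequences are shown first because several of them share an element. No sequence of the files' build was read, so the RefSeq promoters of assembly GRCr8 were used, from 250 bases before to 50 after the start site, and 9 of the 10 genes had one. Maf1 is not analysed here for sequence. A peak summit in the files' build (Rnor_6.0) may lie outside this window, as given further on for each gene, and the start sites of both annotations need not coincide. The 250 bases before the start site are printed 5′ to 3′ on the gene's strand for the 5 genes that hold it, with matches to ACANNTCCC or to the longer published ZNF143 and THAP11 consensus, on either strand, in capitals.
Prcc: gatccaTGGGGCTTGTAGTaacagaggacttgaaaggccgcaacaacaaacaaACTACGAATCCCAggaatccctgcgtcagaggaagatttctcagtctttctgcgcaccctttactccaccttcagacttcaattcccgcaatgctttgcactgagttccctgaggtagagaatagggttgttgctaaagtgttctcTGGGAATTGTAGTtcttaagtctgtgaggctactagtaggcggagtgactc
Ncln: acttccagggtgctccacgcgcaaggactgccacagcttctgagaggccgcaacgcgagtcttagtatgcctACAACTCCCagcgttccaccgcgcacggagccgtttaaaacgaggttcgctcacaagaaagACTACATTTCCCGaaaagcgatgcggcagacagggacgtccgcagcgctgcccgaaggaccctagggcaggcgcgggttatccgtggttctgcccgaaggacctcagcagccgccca
Mmachc: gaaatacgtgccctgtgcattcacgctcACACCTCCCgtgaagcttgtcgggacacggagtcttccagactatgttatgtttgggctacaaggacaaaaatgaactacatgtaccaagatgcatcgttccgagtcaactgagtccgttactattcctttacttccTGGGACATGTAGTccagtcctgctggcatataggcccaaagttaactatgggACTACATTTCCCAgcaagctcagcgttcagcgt
Fam168a: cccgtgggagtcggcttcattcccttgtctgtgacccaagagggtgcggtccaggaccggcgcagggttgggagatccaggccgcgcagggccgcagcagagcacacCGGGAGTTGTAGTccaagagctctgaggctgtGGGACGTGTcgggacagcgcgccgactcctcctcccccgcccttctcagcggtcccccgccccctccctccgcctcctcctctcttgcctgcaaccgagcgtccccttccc
Fbxl19: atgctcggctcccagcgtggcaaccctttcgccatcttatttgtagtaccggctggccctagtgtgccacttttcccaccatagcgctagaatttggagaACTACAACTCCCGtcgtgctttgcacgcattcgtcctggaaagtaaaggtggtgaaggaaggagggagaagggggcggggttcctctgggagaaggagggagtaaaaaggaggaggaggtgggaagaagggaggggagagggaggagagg
For contrast, the promoter of Rnf44 holds no match to either form, and its capitals mark an E-box (CACGTG) and a cAMP response element (TGACGTCA).
Rnf44: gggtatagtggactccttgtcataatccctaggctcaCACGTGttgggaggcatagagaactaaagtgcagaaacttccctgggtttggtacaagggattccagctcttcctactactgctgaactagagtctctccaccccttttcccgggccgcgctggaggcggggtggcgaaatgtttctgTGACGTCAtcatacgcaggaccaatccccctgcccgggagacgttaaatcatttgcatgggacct

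In GRCr8 the printed stretches lie on chromosome 2 at 175649665 to 175649914 (minus strand) for Prcc, chromosome 7 at 8862520 to 8862769 (plus strand) for Ncln and chromosome 5 at 135409236 to 135409485 (minus strand) for Mmachc. Those of Fam168a (164469197 to 164469446) and Fbxl19 (191789178 to 191789427) are on the plus strand of chromosome 1, and that of Rnf44 (9930125 to 9930374) on the plus strand of chromosome 17.

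A match to the CArG box was found in 0 of the 9 promoters, against 307 of 19005 protein-coding promoters (1.62%) and 451 of 27457 promoters of all genes (1.64%). With 1 mismatch allowed the count was again 0 of 9, against 20.1% of protein-coding promoters. Searched the same way, the promoter of Egr1, an immediate early transcription factor gene, held 2 CArG boxes and that of Egr2 held 1. No CArG box match was obtained for Egr3 and Actb, the other reference genes, and whether both had a promoter sequence was not checked. Absence from this window says only that these letters are not in it.

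The element ACANNTCCC, which was searched after the promoters had been read, occurred in 5 of the 9 promoters (55.6%, exact 95% interval 21.2 to 86.3%), those of Prcc, Ncln, Mmachc, Fam168a and Fbxl19. It occurred in 6.98% of protein-coding promoters and in 6.50% of all promoters. The longer published consensus, which overlaps it, occurred in the same 5 genes and in 3.06% of protein-coding promoters. If the starts of both annotations coincide, the window at Fbxl19 lies outside its SRF region, centred 1367 bp upstream. Of the 5 genes only Prcc and Ncln would then have their median summit in the window. Prcc held 3 matches to the longer form, from 244 to 39 bases before the start site on both strands, and 1 of them is also a match to the short form. Mmachc held 3 matches to the short form and 2 to the longer one, the nearest to the start site ending 21 bases before it. In human cells the MMACHC promoter is known to be controlled by ZNF143 with THAP11 and the coregulator HCFC1.

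The element was also common at other sites. Of 217 other genes with a site called in at least 2 SRF libraries and no IgG library within 1 kb of the start site, 107 (49.3%) held ACANNTCCC and 110 (50.7%) the longer consensus, while 11 (5.07%) held a CArG box. The share with the longer consensus was 38.1% of 113 genes whose site was called in 1 library, 45.7% of 70 with calls in 2 or 3, and 54.3% of 140 with calls in 4 to 6. It was in 20 of 68 genes (29.4%) whose nearest site, called in at least 2 libraries, lies farther than 1 kb from the start, as that of Fbxl19 does. Among the 7 other genes with a site near the start called in all libraries it was 2 of 7, and a CArG box was likewise in 2 of 7. Choosing the motif after reading the 9 promoters means that its share among them is not independent, and no test was made. The exact interval of that share is therefore no test either.

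**Figure D1:**
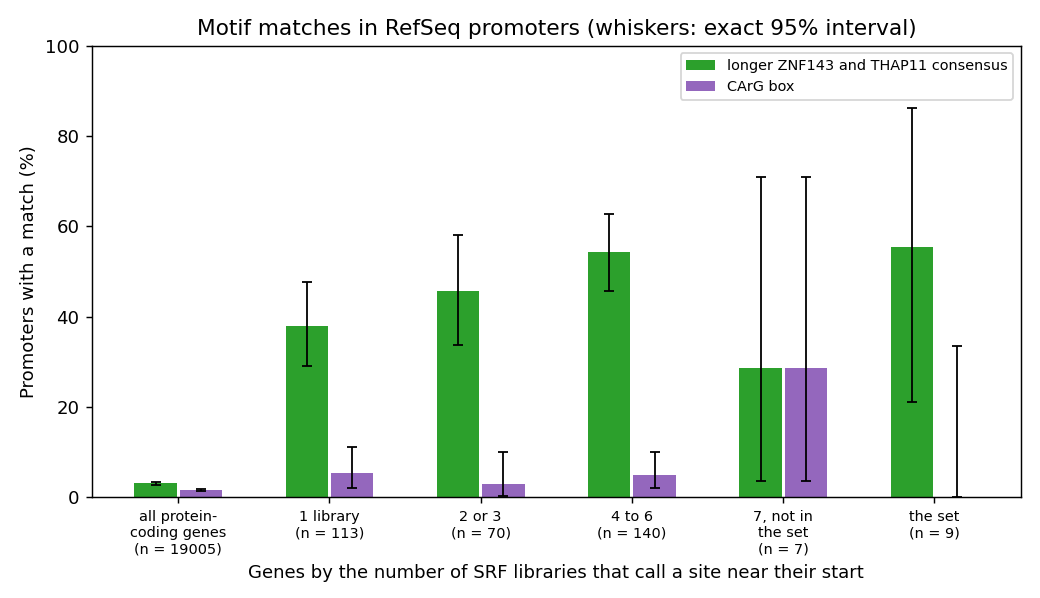
Share of RefSeq promoters (%) with a match to the longer ZNF143 and THAP11 consensus (green) or to the CArG box (purple), for all protein-coding genes, for other genes grouped by how many SRF libraries call a site within 1 kb of their start, and for the 9 genes with a promoter sequence. Bars are shares and whiskers are exact 95% intervals. The longer consensus is at 3.06% of all protein-coding promoters and at 5 of 9 here, and the CArG box at 0 of 9. The longer consensus was searched after the 9 promoters had been read, so its whiskers there are no test. Fbxl19, 1 of the 5, has its region centred farther than 1 kb from the start.

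Other motifs were scattered over the 9 promoters. A GC box (GGGCGG) was in 5, those of Gsk3a, Fbxl19, Banp, Ncln and Fam168a, against 43.1% of protein-coding promoters. Banp held an NRF1 motif (GCGCNTGCG, in 8.08% of protein-coding promoters) just before the start site and TCTCGCGA, the motif of its own protein (in 1.27%), from 15 to 22 bases after it. Rnf44 held CCAAT boxes (CCAAT, in 38.4%), the E-box (in 7.27%) and the cAMP response element (in 2.22%), and Fbxl19 a YY1 motif (AAGATGGCG, in 2.29%).

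Several motifs had no match in any of the 9. These were the ETS core (CCGGAAG, in 11.2% of protein-coding promoters), the TATA box (TATAAA, in 13.1%) and the ZNF143 form TCCCAGNAT (in 2.14%). Among the 217 other genes with a site near the start, TCCCAGNAT was in 27 (12.4%). The ETS core was in 33 of them (15.2%) and the TATA box in 11 (5.07%). Unlike ACANNTCCC and the longer consensus, TCCCAGNAT was set before the promoters were read. Gsk3a held the GC box alone, and Ccdc90b held no match to any motif searched. G and C made up 48.3% (Prcc) to 67.3% (Fam168a) of the bases, with a median of 58.3%, against a median of 55.3% for protein-coding promoters.

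The regions sit at gene starts, with exceptions. In Rnor_6.0 the main regions span 475 bp (Mmachc) to 1171 bp (Fbxl19). The annotation places 8 of them in promoters. That of Ccdc90b lies in exon 1 of 9 (chromosome 1, 157403378 to 157404018), and that of Fbxl19 between genes (chromosome 1, 199194107 to 199195277), with its centre 1367 bp upstream of the nearest annotated start. The region of Maf1 (chromosome 7, 117417715 to 117418256) is nearest to the start of Maf1, while its annotation names the promoter of the neighbouring gene Sharpin, so either gene could be the one meant. A separate region named after Sharpin lies 564 bp away and was called in 1 library.

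The other main regions are on chromosome 1 at 82108053 to 82109197 (Gsk3a) and 165723908 to 165724418 (Fam168a), chromosome 19 at 54765986 to 54766703 (Banp) and chromosome 2 at 187258037 to 187258606 (Prcc). Those of Ncln (chromosome 7, 11081053 to 11081710), Rnf44 (chromosome 17, 10457230 to 10458138) and Mmachc (chromosome 5, 135561628 to 135562102) complete the set. No IgG peak lay in any of them, and the IgG libraries held 117 peaks (OPC) and 24 (OL). Their depth was 11308414 tags (OPC) and 1551203 tags (OL). The OL IgG library was thus shallower than any SRF library, and the absence of a peak there says little.

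Library depth differs widely. The OPC libraries held 9054483 to 20303444 tags and 232 to 714 peaks, OL replicate 1 held 12103611 tags and 436 peaks, and OL replicates 2 and 4 held 2394854 and 3363937 tags with 47 and 172 peaks. Of all tags, 0.116% (OPC replicate 2) to 0.379% (OPC replicate 4) fell in the 848 regions. Reads were therefore scaled over the regions (TMM), which gives a level relative to the other regions, and separately to all tags. Fewer cells that carry the factor and less of it per cell cannot be told apart in such bulk libraries.

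Gsk3a had the most normalised reads of all 848 regions. Its values in OPC replicates 1 to 4 were 318, 310, 320 and 313 normalised reads, and in OL replicates 1, 2 and 4 they were 376, 468 and 376. All 3 OL values were above all 4 OPC values. Per kilobase, where regions of different length can be compared, Gsk3a had a mean of 309 normalised reads over the 7 libraries and came second to Prcc at 318 among the 30 sites called in all SRF libraries and no IgG library. The OPC values varied by 1.54% (coefficient of variation), less than the 4.98% that counting error alone would give. The same held at Fbxl19, Ncln and Mmachc, while OPC variation exceeded counting error at Banp, Prcc, Rnf44, Maf1, Fam168a and Ccdc90b. At Ccdc90b it was 12.8% against 9.02%. The second Gsk3a region, 577 bp away, held 0 to 20 reads per library and was called in OPC replicate 4 and OL replicate 1.

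Fbxl19 stood at 171, 153, 159 and 166 normalised reads in OPC and 300, 237 and 255 in OL, again without overlap between the stages. Its region is the longest, and per kilobase it had a mean of 176 normalised reads.

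Mmachc was at 93.7, 93.3, 103 and 105 normalised reads in OPC and at 138, 140 and 141 in OL (replicates 1, 2 and 4). The OL values lie within 4 reads of each other, although OL replicate 2 rests on 23 raw reads. Ccdc90b had 110, 80.6, 102 and 102 normalised reads in OPC and 124, 146 and 121 in OL. At both genes every OL value was above every OPC value.

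The stages overlapped at the other 6 genes. Banp had 190, 196, 177 and 166 normalised reads in OPC and 198, 195 and 228 in OL. Prcc had 163, 186, 161 and 159 in OPC and 217, 164 and 217 in OL, where replicate 2 sat among the OPC values. These are the genes with the highest peaks relative to input, as described further on.

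Ncln ran from 121 to 138 normalised reads in OPC and from 137 to 145 in OL. Maf1 ran from 87.4 to 114 and from 103 to 142, and Fam168a from 83.3 to 104 and from 86.3 to 108. Rnf44 was the only gene with a lower mean in OL, with 112 ± 24.1 normalised reads (SD, n = 3) against 132 ± 12.3 in OPC (SD, n = 4). Its lowest value, 85.1 in OL replicate 2, rests on 14 raw reads.

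**Figure D2:**
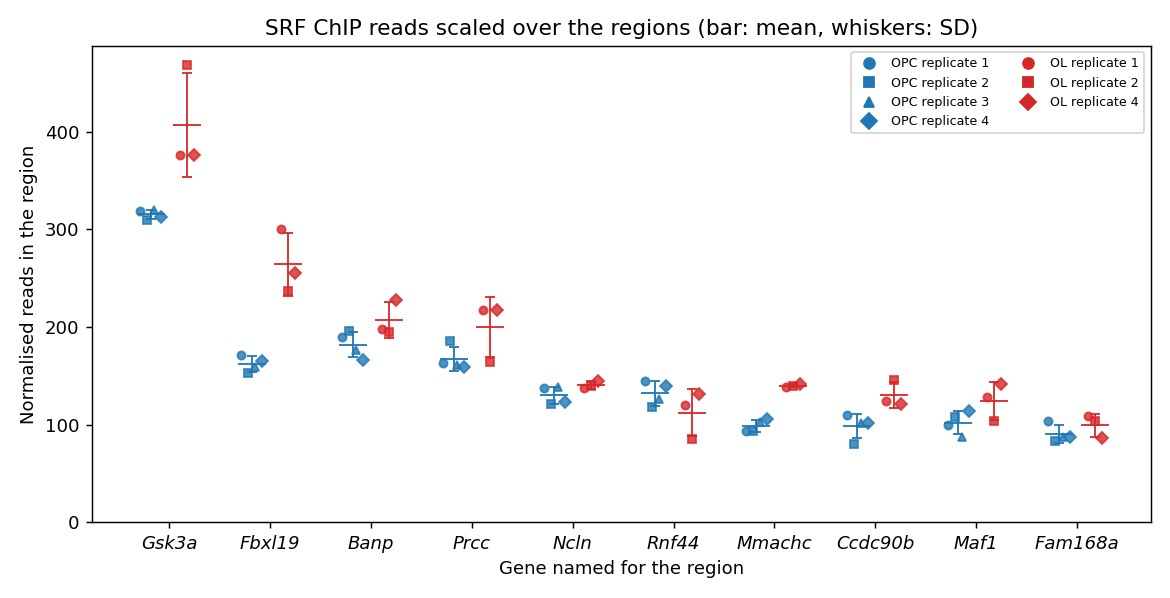
Normalised reads (scaled over the regions) in the main region of each gene, in OPC (blue) and OL (red); each point is a library, the bar its stage mean and the whiskers the SD. At Gsk3a, Fbxl19, Mmachc and Ccdc90b all OL points lie above all OPC points, and at the other 6 genes the stages overlap.

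Scaled to all tags the picture differs. Gsk3a then had 33.1, 16.8, 30.6 and 61.5 reads per 1000000 tags (RPM) in OPC and 38.7, 32.2 and 32.4 in OL, and the stages overlapped at all 10 genes. At each gene the highest OPC value, in replicate 4, was 3.07 times (Banp) to 4.59 times (Ccdc90b) the lowest, in replicate 2. The 10 regions together took 78.8 RPM in OPC replicate 2 and 290 in OPC replicate 4, and 122 to 190 in OL. As a share of reads within the 848 regions they took 6.80 to 7.66% in OPC and 6.55 to 8.79% in OL.

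**Figure D3:**
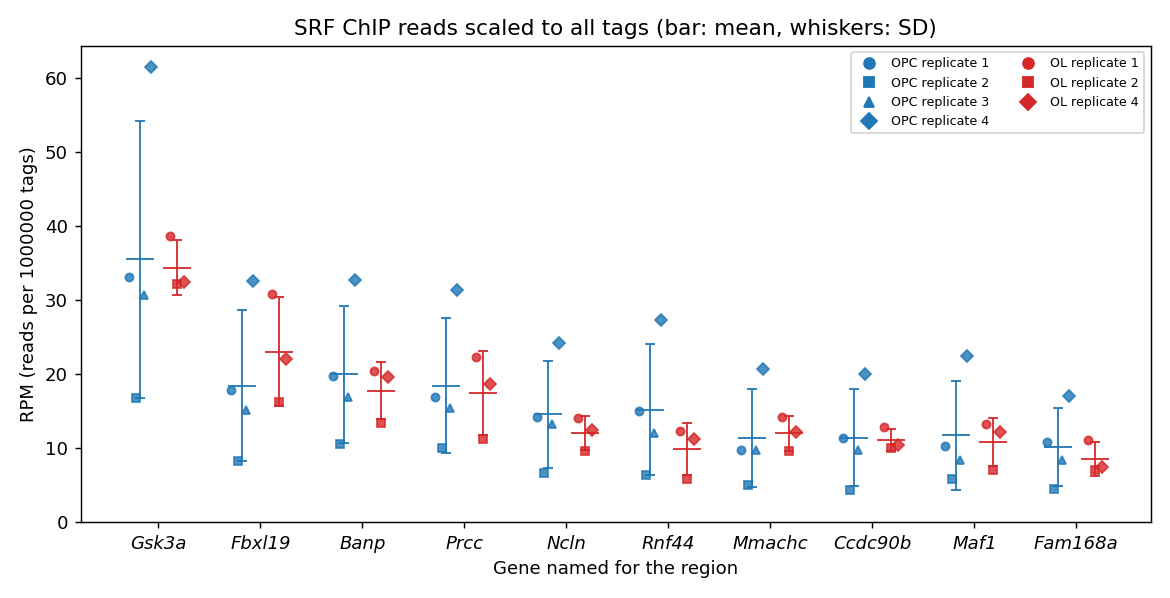
RPM (reads per 1000000 tags) in the same regions, in OPC (blue) and OL (red), with points for libraries, bars for stage means and whiskers for SD. OPC replicate 4 is the highest and OPC replicate 2 the lowest OPC library at every gene, and the OL points lie within the range of the OPC points or, at Rnf44, reach just below it.

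Between OL and OPC none of the 10 main regions passed at an adjusted p below 0.05 (edgeR quasi-likelihood test over 557 regions), beside a background of 12 of 557 regions (2.15%). The unadjusted edgeR p was below 0.05 at 2 of the 10, Fbxl19 and Mmachc, beside 122 of all 557 regions (21.9%). The log2 fold change was 0.72 ± 0.22 at Fbxl19 (SE, edgeR adjusted p = 0.107) and 0.50 ± 0.18 at Mmachc (SE, edgeR adjusted p = 0.133). Gsk3a had 0.36 ± 0.27 (SE, edgeR adjusted p = 0.532), and the range over the 10 was -0.20 at Rnf44 to 0.72.

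The estimate was positive at 9 of 10, with a median of 0.29, against 275 of 557 positive and a median of -0.01 over all regions tested. Every OL library was above every OPC library at 4 of the 10, beside 39 of 557 regions (7%), and below at 0, beside 75 of 557 (13.5%). A call in the shallow OL libraries was part of the choice of these genes, so nothing is read from this direction. Of the other 20 sites called in all SRF libraries and no IgG library, 19 also had a positive estimate, with a median of 0.63.

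These calls depend on the fit. When only regions called in at least 2 SRF libraries and no IgG library were tested, Fbxl19, Gsk3a and Mmachc passed with edgeR adjusted p of 0.000141, 0.0228 and 0.0180, beside 35 of 430 regions (8.14%). Of the 10, DESeq2 passed Fbxl19 (adjusted p = 0.0151), beside 42 of 557 regions (7.54%). With replicate numbers 1, 2 and 4 as a paired replicate block, 0 of the 10 and 0 of 528 regions passed by edgeR. Scaled to all tags, 7 of the 9 positive estimates became negative, leaving Fbxl19 at 0.34 and Mmachc at 0.10, and the median over all 557 regions moved to -0.35.

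**Figure D4:**
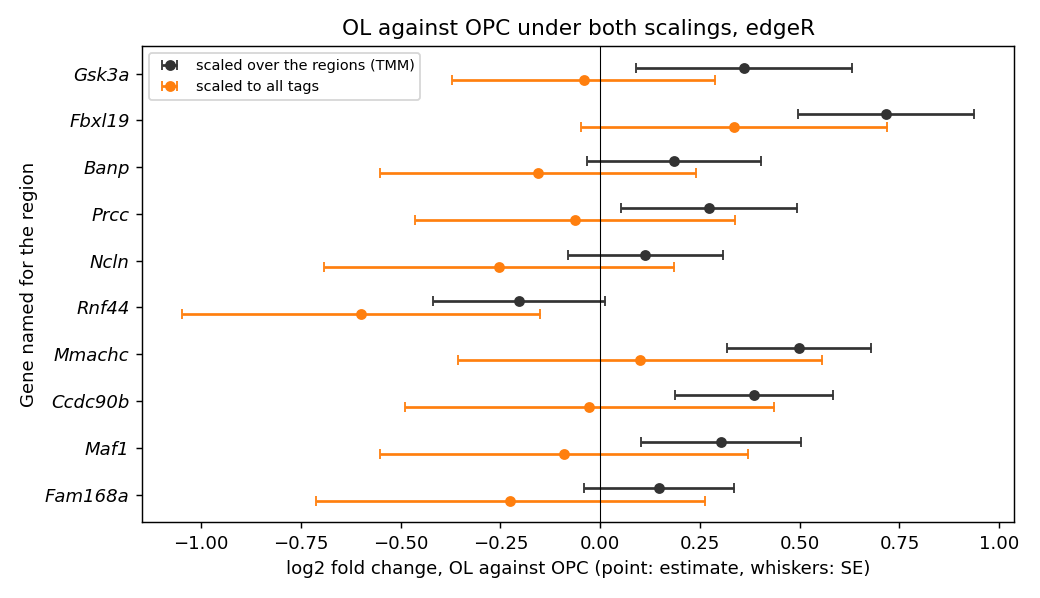
Log2 fold change of OL against OPC at the 10 main regions from edgeR, scaled over the regions (black) or to all tags (orange); points are estimates and whiskers SE. Black points lie above 0 at 9 genes, and orange points lie above 0 at Fbxl19 and Mmachc only.

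Peak height relative to input ordered the genes differently from read number. The authors' fold enrichment at the highest peak of each region was compared within each library. Banp ranked first of all peaks in OPC replicates 3 and 4 and OL replicates 1 and 4, with fold enrichment of 44.0, 61.0, 59.3 and 29.9. Prcc ranked first in OPC replicates 1 and 2, with 41.1 and 33.2. In OL replicate 2, the library with 47 peaks, Gsk3a ranked second with 23.7. Banp and Prcc were each among the 10 highest peaks in 6 of 7 libraries and Gsk3a in 5.

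At the other end, Rnf44, Mmachc and Fam168a were among the 10 highest peaks in none of the 7 libraries. Mmachc ranked from 14 in OL replicate 2 to 109 in OPC replicate 2. Fbxl19 ranked from 6 in OL replicate 1 to 114 in OPC replicate 4, where its fold enrichment was 22.5. Maf1 was second in OL replicate 1 (59.2) and at rank 64 in OPC replicate 1 (18.1). The fold enrichment reached 10 in all 7 libraries at 6 genes, and Rnf44 had the lowest value of the set, 6.78 in OL replicate 2. That library has an estimated fragment length of 296 bp against 72 to 86 bp in the other SRF libraries. Its fold enrichment may therefore not be on the same scale as theirs.

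Summit positions, which the choice of genes did not use, were tight at some sites and loose at others. The 7 summits lay within 23 bp at Banp, 29 bp at Maf1, 29 bp at Ccdc90b and 42 bp at Rnf44. At Banp the offsets from the median summit in OPC replicates 1 to 4 were 0, -7, 16 and 2 bp and in OL replicates 1, 2 and 4 they were 0, 8 and -1 bp. The single reads were 70 to 73 bp long, so a spread of this size is below the read length. MACS estimated fragments of about the same length (72 to 86 bp, except 296 bp in OL replicate 2). Whether these estimates give the true fragment length was not tested.

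At Gsk3a the range was 210 bp, and 38 bp without OL replicate 2, whose summit lay 188 bp from the median. At Fam168a it was 283 bp, with OPC replicate 3 lying 224 bp from the median, and 83 bp without that library. Mmachc was spread without a single outlying library, over 112 bp, and 3 of its 7 summits lay within 25 bp of the median. Prcc, Fbxl19 and Ncln had ranges of 73, 82 and 94 bp.

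**Figure D5:**
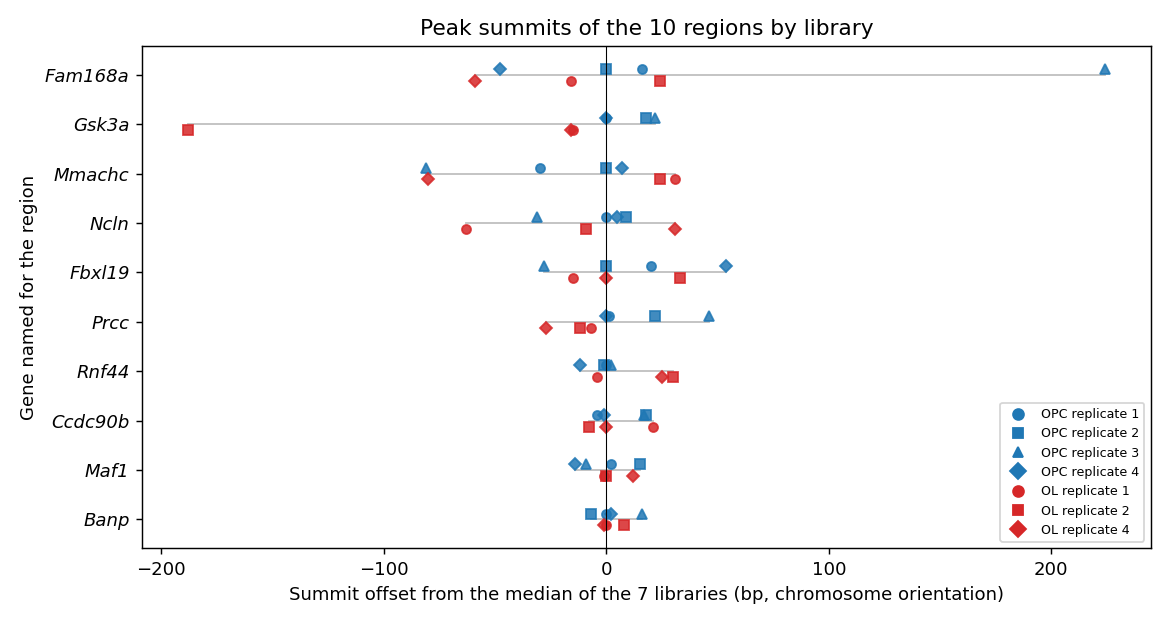
Offset of each library's highest peak summit from the median of the 7 libraries (bp along the chromosome), for the 10 regions ordered by their range; points are libraries in OPC (blue) and OL (red) and grey lines the range. The points gather within 42 bp at Banp, Maf1, Ccdc90b and Rnf44, and the ranges at Gsk3a and Fam168a are set by 1 library each.

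No summit difference between the stages passed, and with 35 arrangements of the libraries no single gene could have passed after adjustment over the 10. The exact two-sided permutation test gave p = 0.0286 at Gsk3a, the smallest it can give, for a difference of -83.0 bp (OL minus OPC), with an adjusted p of 0.286 over the 10 genes. All 3 OL summits there lay at lower coordinates than all OPC summits. Without OL replicate 2 the difference was -25.5 bp. It was -65.0 bp at Fam168a, or -6.33 bp without OPC replicate 3, and -32.6 bp at Prcc. That test ignores the pairing of preparations. Within the pairs numbered 1, 2 and 4, the OL summit minus the OPC summit was -15, -206 and -16 bp at Gsk3a and -8, -34 and -27 bp at Prcc, and the sign was not the same in all 3 pairs at the other 8 genes. A paired exact permutation test of 3 pairs cannot go below 0.25 and was not made. Adjusted exact permutation p-values at the other 9 genes ran from 0.429 to 0.943.

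Measured from the annotated start in Rnor_6.0, the median summit was closest at Ncln (4 bp upstream) and lay 90 bp downstream at Mmachc, 216 bp downstream at Ccdc90b and 385 bp downstream at Maf1. Prcc had it 232 bp upstream, Banp 358, Fam168a 399, Gsk3a 410, Rnf44 760 and Fbxl19 1018 bp upstream. The promoter window that was searched for motifs would thus hold the summits of Prcc and Ncln if the starts of both annotations coincide. Whether sequence under the other summits holds a CArG box was not tested.

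Some regions hold more than 1 peak. Rnf44 had a second peak in 4 of 7 libraries and Fbxl19 had further peaks in 3. Gsk3a was split into 3 peaks in OL replicate 4, with fold enrichment of 20.6 at the main and 13.7 and 12.3 at the flanking ones. Banp, Prcc, Mmachc, Maf1 and Fam168a had a single peak in every library.

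The 10 sites are not simply the 10 with the most reads. With mean normalised reads from 354 (Gsk3a) to 94.2 (Fam168a), they are interleaved with Egr1 (203), LOC100911959 (160) and Zswim6 (99.0), which were also called in all SRF libraries. Just below Fam168a came Bod1 (89.0), Egr3 (87.8) and LOC688176 (84.7). Of the 42 regions with at least as many reads as Fam168a, 20 overlapped an IgG peak and 9 were called in fewer than 7 SRF libraries, leaving the 10 and those 3.

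Some other sites lay close to the median profile of the 10 over the 7 libraries. Measured by the root mean square difference of centred log2 normalised reads from the median profile of the 10, the nearest other sites were LOC688176 (0.11), Gmpr2 (0.14) and Zscan22 (0.14) among the 20. The 10 define that profile, so their own closeness to it is partly built in. Of the 10 themselves Ncln was nearest (0.10). Fbxl19 (0.22) and Rnf44 (0.31) were the farthest of the 10, at ranks 15 and 20 of the 30 sites.

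Known partners and paralogs of the 10 gene products, and regulators of their promoters, were looked up among the regions. Zfp143, Thap11 and Hcfc1 belong to the last kind, through the human MMACHC promoter named above. Of 40 such genes, which include Gsk3b, Axin1, Kdm2b, Tfe3, Nomo1, Hcfc1, Zfp143 and subunits of RNA polymerase III and its factors, 1 had a region (2.50%), Thap11, beside 583 of 23154 protein-coding RefSeq symbols (2.52%). Its 2 promoter regions on chromosome 19 were called in 4 and 2 SRF libraries and held few reads. The OPC means were 19.4 ± 3.61 and 13.8 ± 1.68 normalised reads (SD, n = 4), and the OL means 11.6 ± 7.92 and 12.3 ± 12.1 (SD, n = 3). Neither passed between the stages (edgeR adjusted p = 0.673 and 0.993).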

How the data were processed

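SRF ChIP-seq libraries from OPC (4) and OL (3), IgG libraries (1 per stage) and inputs were used as deposited. Per the submitters' processing notes Trim Galore, BWA, MACS2, HOMER and deepTools were used with the build Rnor_6.0. Peak calling by the authors used MACS 2.2.7.1, library by library and against input, at a q-value of 0.05, and consensus regions were counted with featureCounts 2.0.1, both per the file headers. The deposited count tables hold whole, unnormalised read counts. The deposited peak tables hold the pileup signal, the fold enrichment ratio and −log10 p and q, which are the authors' values. Treatment of duplicate reads before peak calling is not given in the sources used here.

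A region was called in a library when a peak overlapped it by at least 1 bp. The 557 regions that reached 10 reads in 3 or more libraries entered the edgeR 4.0.16 quasi-likelihood test of OL against OPC (R 4.3.3, TMM scaling, Benjamini-Hochberg), with DESeq2 1.42.0 as an alternative. Normalised reads are counts over the TMM effective library size, set to a mean of 1 across libraries, and RPM (reads per 1000000 tags) uses the tag totals of the peak table headers. On counts simulated for this comparison over 523 regions, edgeR passed 44 of 44 regions raised 4-fold and 39 of 50 raised 2-fold. It passed 47 of 50 lowered to 0.25, 32 of 46 lowered to 0.5 and 3 of 333 unchanged ones. The simulated counts were drawn independently at the fitted dispersion. Changes as small as those estimated at the 10 regions (log2 of at most 0.72) were not simulated, so this recovery does not cover them. Summits of the peak with the largest fold enrichment were compared by exact permutation with scipy 1.17.1, and promoter motifs were searched on both strands, palindromes once.

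Replicates were independent preparations split between the stages, per the labels' protocols, which pairs OPC and OL libraries numbered 1, 2 and 4. OL replicate 4 is numbered by its title, while its library name carries the number 3, and the pairing, the replicate block included, depends on the title. Across regions, departures from the stage mean correlated within these pairs at 0.09, 0.27 and 0.16. A pair with different numbers (OPC 4, OL 1) reached 0.28, and the pairing therefore comes from the protocol and not from the data. Named are the 10 genes and the sites called in all SRF libraries that lie above or just below the lowest of them. The 3 other sites nearest in profile are also named, with a list of partners, paralogs and promoter regulators. Egr1, Egr2, Egr3 and Actb were set as reference genes for the motif search. The genes and lists were chosen with earlier results of these data known.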

Additional observations from a re-analysis of the deposited data

Results flagged for a closer look

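In 30 sets of 4 OPC values (normalised reads, reads per 1000000 tags and summit offset of the 10 genes) 1 value stood apart by Dixon's 95% criterion, where chance alone gives about 1 in 20. It was Prcc in OPC replicate 2, at 186 normalised reads against 159 to 163 in the other 3 OPC libraries. OPC replicate 2 is the deepest library and has the lowest share of tags in regions, and the part of either in this value was not tested.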

How the results depend on the processing

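The count of regions that passed between OL and OPC by edgeR was 12 and depended on most choices. It was 0 scaled to all tags, 42 with DESeq2, 22 without the filter on low counts, 35 among regions called in at least 2 SRF libraries and no IgG library, 0 with the paired replicate block, 1 to 31 when each library was left out in turn, and 1 without both shallow OL libraries, an alternative added after seeing the data in which the lone OL library is assumed to vary like OPC. Without OL replicate 1 it was 31, and without OPC replicate 4 it was 1. Of the 10 main regions 0 passed, 1 with DESeq2 and 3 among the reproducible regions, and 0 under every other alternative run (leaving out each library gave 0 to 0). The causes were not tested.

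Scaled to all tags, the log2 fold change reversed at Banp (-0.16), Ccdc90b (-0.027), Fam168a (-0.23), Gsk3a (-0.042), Maf1 (-0.091), Ncln (-0.25) and Prcc (-0.062). It kept its sign at the 10 genes under the other alternatives. At a fold enrichment of at least 10 the members called in all SRF libraries fell from 10 to 6, and at a q-value of at most 0.001 or with at least 50% of the peak inside the region all 10 remained. In the bases before the start site alone, the BANP motif count went from 1 to 0 and the other motif counts did not move. Taking the summit nearest to the median instead of the highest changed no range.

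Depth limits the OL values: in OL replicate 2 the 10 regions held 14 to 77 reads, where counting error alone is 26.7 to 11.4% of the value. PCR reads are not independent molecules, and these percentages cover counting error only.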
